A study of Homo sapiens with 18 samples.

Results

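This account covers 10 human genes for plasma membrane amino acid transporters that are grouped as being under the control of the stress transcription factor ATF4: SLC3A2, SLC7A5, SLC7A11, SLC7A1, SLC43A1, SLC38A2, SLC38A5, SLC6A9, SLC1A4 and SLC1A5. They were found by gene symbol among the 59251 genes of the deposited tables, a search that used no measured value. The 10 genes and the comparison lists were, however, chosen with earlier results of these data known. Their counts beside the shares of all genes are thus a description and not an independent test. All 10 were among the 21615 genes left for testing after genes with low counts were removed.

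RNA was sequenced from HAP1, an established human line with a near-haploid genome that came from a chronic myeloid leukaemia line, in 18 libraries in 6 groups of 3. A line labelled ∆SARS2+SARS2-1xFLAG, called the ∆SARS2 line here, lacks its own SARS2 and carries an added SARS2 with a FLAG tag. SARS2 is the mitochondrial seryl-tRNA synthetase, which loads serine onto its tRNAs inside mitochondria. This line was measured at 15 ng/mL doxycycline and at 3, 6 and 9 days labelled as without the drug, and the question set by the series is how gene expression differs once SARS2 is depleted for those times. The unmodified parental HAP1 line was measured without and with 15 ng/mL doxycycline, and the sources used here do not say how long its cells had been without the drug. All cells were grown in IMDM. The promoter of the added gene, the kind of deletion and whether the ∆SARS2 line is a single clone are likewise not stated in those sources.

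The labels of the ∆SARS2 line could not be checked by a loss of SARS2 RNA. SARS2 stood at 24.2 ± 0.923 CPM (counts scaled to TMM-adjusted library size; SD, n = 3) with doxycycline, 31.6 ± 0.986 CPM at day 3, 24.7 ± 1.30 CPM at day 6 and 41.8 ± 7.16 CPM at day 9, so it was not lower in any group labelled as without the drug. In the parental line it stood at 39.9 ± 3.03 CPM without and 44.3 ± 1.67 CPM with doxycycline. Reads of the added and the original gene fall on the same symbol and cannot be told apart here, so the groups are called by their labels throughout. Library totals ran from 66850705 to 111123481 counts. Of 8 haematopoietic markers, GATA1, CD3E and HBB had 0 counts in every library and the summed level of the list was at most 0.613 CPM; summed epithelial markers, with KRT18 the main part, were 60.5 to 69.5 CPM at day 9 and 38.8 to 60.1 CPM elsewhere, and summed mesenchymal markers, mostly VIM, were 840.1 to 1116 CPM at day 9, 674 to 780.1 CPM in the other ∆SARS2 groups and 475 to 561 CPM in the parental groups. The part that these differences play in the results was not tested. In bulk RNA, fewer expressing cells and less RNA per cell cannot be told apart.

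Cells take up amino acids through families of membrane carriers that either exchange an amino acid for another, let it run down its gradient, or pull it in with sodium. ATF4 is a transcription factor whose protein is made when phosphorylation of the initiation factor eIF2 slows general translation, a state called the integrated stress response, and it switches on genes for amino acid uptake, amino acid synthesis and tRNA charging. Faults in mitochondria are a known trigger of this response in cultured mammalian cells. ATF4 is known to bind a composite C/EBP-ATF element in the DNA of its targets, which is why the short stretches below are shown.

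The element was searched as TGATGNAA on both strands in RefSeq promoter windows (build GRCh38.p14, 250 bases before to 50 after a transcript start), which matched 9 of the 10 genes, not SLC7A11. It was present in 4 of their 15 windows, against 3.62% of all 35116 windows in the table, and in 4 of the 9 genes, against 4.46% of all 27305 genes; a gene with several annotated starts has several windows. The stretches are given on the coding strand with the match in capitals, and a match on the opposite strand reads as its reverse complement.
SLC7A1, chr13:29595663-29595692, minus strand, match from base 8 after the start: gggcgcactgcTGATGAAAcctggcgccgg
SLC1A4, chr2:64989381-64989410, plus strand, match from base 7 before a start inside the gene: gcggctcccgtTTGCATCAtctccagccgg
SLC3A2, chr11:62881725-62881748, plus strand, match from base 38 after a start inside the gene: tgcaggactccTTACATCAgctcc
SLC1A5, chr19:46784893-46784922, minus strand, match from base 97 before a start inside the gene: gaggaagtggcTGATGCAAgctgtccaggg
These are matches of letters in short windows, and binding was not measured. The windows of SLC7A5, SLC38A2, SLC38A5, SLC6A9 and SLC43A1 did not hold these letters.

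In the GRCh38 coordinates of the tables, the heavy chain gene SLC3A2 lies at chr11:62856109-62888860 on the plus strand, SLC7A5 at chr16:87830023-87869507 on the minus strand and SLC7A11 at chr4:138164097-138312671 on the minus strand. SLC7A1 lies at chr13:29509414-29595688, SLC43A1 at chr11:57484534-57515702, SLC38A2 at chr12:46358188-46372773, SLC38A5 at chrX:48458544-48470260, SLC6A9 at chr1:43996483-44031462 and SLC1A5 at chr19:46774883-46788594, all on the minus strand, and SLC1A4 at chr2:64988479-65023865 on the plus strand. Values count reads over all exons of a gene, so isoforms were not told apart.

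The 10 genes differed widely in level. Per kilobase of the annotated exons of all isoforms together, and averaged over the 18 libraries, the glutamine carrier SLC1A5 was the highest of the 10 at 116 RPKM, followed by SLC3A2 at 83.0 RPKM, SLC7A5 at 78.0 RPKM and SLC38A5 at 67.0 RPKM. SLC38A2 averaged 35.2 RPKM, SLC7A1 23.5 RPKM, SLC43A1 11.8 RPKM and SLC1A4 8.19 RPKM. The cystine carrier SLC7A11 at 6.17 RPKM and the glycine carrier SLC6A9 at 3.64 RPKM were the lowest, and SLC6A9 still exceeded 57.1% of all genes tested. The lowest count of any of the 10 genes in a library was 1071 (SLC6A9). By group mean, the ∆SARS2 line with doxycycline was the lowest of the 6 groups for 8 of the 10 genes, and SLC38A5 and SLC43A1 were the exceptions. For SLC7A11 and SLC1A5 its libraries overlapped those of the next group. The share of all genes with their lowest mean in this group was not computed, so the count is a description only.

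**Figure D1:**
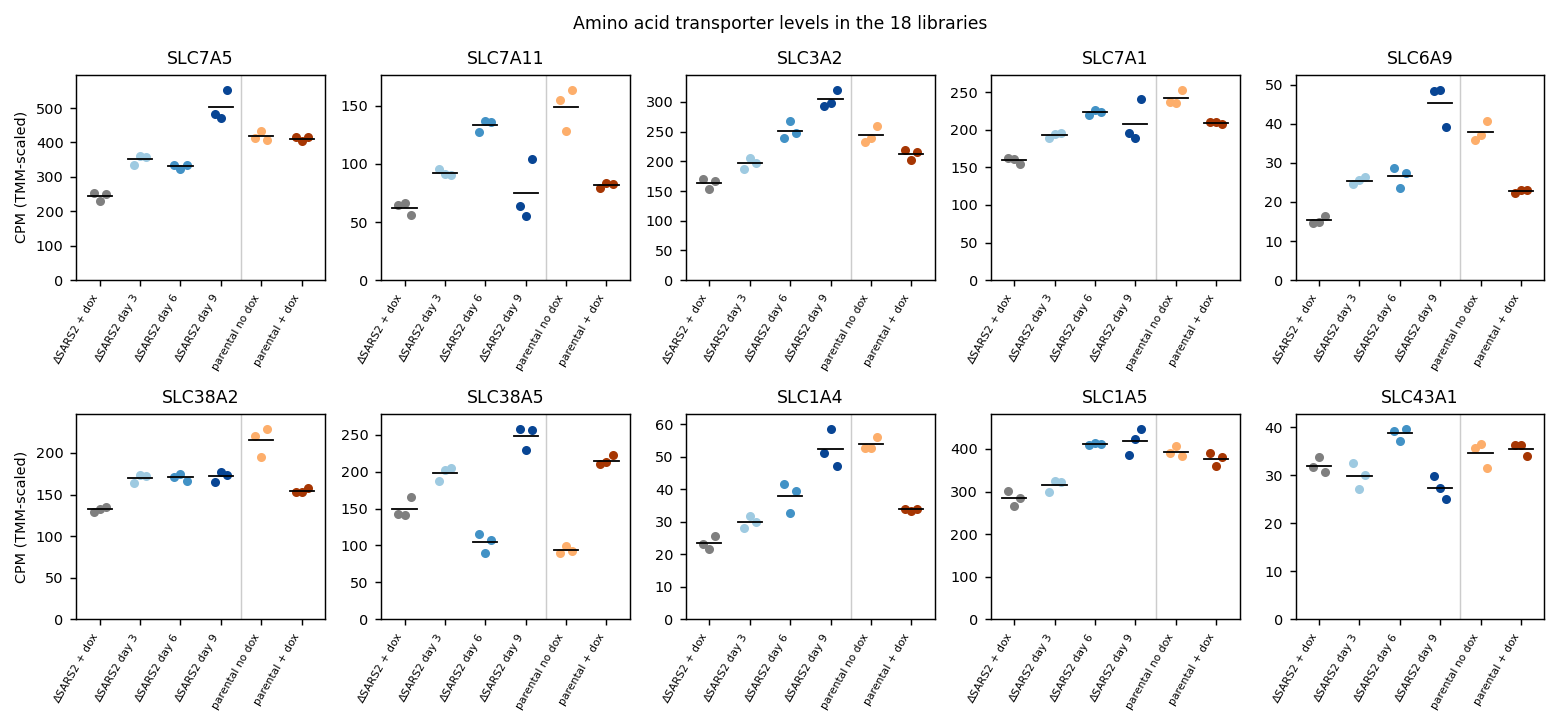
Level of each transporter gene (CPM, TMM-scaled, linear axis from 0) in the 18 libraries; each point is a library, each line a group mean, and the grey line parts the ∆SARS2 groups (left) from the parental groups (right). For SLC7A5 the ∆SARS2 line with doxycycline averages 245 CPM and day 9 averages 503 CPM, while SLC38A5 is lowest in the day 6 and the parental libraries without the drug.

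Within the ∆SARS2 line, most of the 10 genes were higher in the libraries labelled as without doxycycline than in those with it, and the number and the size differed between the days. At day 3, 8 of the 10 passed the test as higher and none as lower (edgeR quasi-likelihood test, adjusted p under 0.05), where 6.50% of all genes tested were called higher and 6.87% lower. At day 6, 9 were higher and SLC38A5 was lower, where 14.0% of all genes were called in each direction; with library size alone as the scaling, all-gene calls at day 6 were 4048 higher and 2244 lower, against 3034 higher and 3036 lower with TMM, and the counts for the 10 genes did not move. At day 9, 8 were higher and SLC43A1 was lower, where 22.6% of all genes were called higher and 23.8% lower. The median log2 change of the 10 genes was 0.36 at day 3, 0.51 at day 6 and 0.64 at day 9, where the all-gene medians lay between −0.01 and 0.01. The 3 comparisons share the 3 libraries with doxycycline, so their values stand side by side and are not independent. At day 3 the calls depended more on the fit: without the second day 3 library 4 of the 10 passed, without the third 5 passed, and genome-wide calls fell to between 1088 and 1426 without the first or the second doxycycline library or the second or the third day 3 library, against 2889 with all of them. These fits share 1 estimate of a gene's spread over all groups. With only the 2 compared groups fitted, 9 of the 10 passed at day 3 and genome-wide calls rose to 6536.

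SLC3A2 encodes 4F2hc, the glycoprotein heavy chain that carries SLC7A5 or SLC7A11 to the cell surface. It had 169.9, 154 and 166 CPM in the ∆SARS2 libraries with doxycycline, 187, 206 and 197 CPM at day 3, 239, 268 and 248 CPM at day 6 and 294, 299 and 320.5 CPM at day 9. Each later group lay wholly above the one before it. Against doxycycline, the log2 fold change of SLC3A2 was 0.27 (SE 0.064, adjusted p = 0.00974) at day 3, 0.62 (SE 0.065, adjusted p = 2.93e-06) at day 6 and 0.90 (SE 0.065, adjusted p = 7.39e-09) at day 9. The steps themselves passed, with 0.35 for day 6 over day 3 (adjusted p = 0.000216) and 0.27 for day 9 over day 6 (adjusted p = 0.00113). Its call at day 3 failed without the second doxycycline library (0.23) or the second day 3 library (0.24).

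SLC7A5 is LAT1, the light chain that brings in leucine and other large neutral amino acids in exchange for glutamine. It had 252, 229.9 and 252 CPM with doxycycline, 335, 360.3 and 358 CPM at day 3, 335, 322 and 335 CPM at day 6 and 484, 472 and 553 CPM at day 9. Days 3 and 6 overlapped each other, both lay above the doxycycline libraries, and day 9 lay above all other groups. LAT1 RNA changed on the log2 scale by 0.52 at day 3 (SE 0.062, adjusted p = 0.000108), 0.44 at day 6 (SE 0.062, adjusted p = 5.62e-05) and 1.04 at day 9 (SE 0.063, adjusted p = 1.13e-09). Day 6 over day 3 did not pass at −0.086 (SE 0.062, adjusted p = 0.283), while day 9 over day 6 did at 0.61 (SE 0.062, adjusted p = 1.10e-07).

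SLC7A11 is xCT, the other light chain, which brings in cystine for glutathione synthesis in exchange for glutamate. It had 64.6, 66.3 and 56.0 CPM with doxycycline, 95.7, 91.6 and 90.3 CPM at day 3, 127, 137 and 136 CPM at day 6 and 64.2, 55.6 and 104 CPM at day 9. It was highest at day 6, and the 3 day 9 libraries spread from below the lowest library with doxycycline to above the highest at day 3. On the log2 scale xCT changed by 0.57 at day 3 (SE 0.15, adjusted p = 0.0184), 1.10 at day 6 (SE 0.15, adjusted p = 4.23e-05) and 0.26 at day 9, which did not pass (SE 0.15, adjusted p = 0.167). Day 9 over day 6 was −0.84 (SE 0.15, adjusted p = 9.02e-05), so the heavy chain and LAT1 were higher at day 9 than at day 6 and xCT was lower. Its day 9 coefficient of variation, 34.9%, was the widest of any of the 10 genes in any group. Without the third day 9 library the day 9 change was −0.058, without the second it was 0.44 and passed, and xCT failed at day 3 without any of the 3 day 3 libraries (0.55, 0.58 and 0.59) or without the first (0.60) or the third (0.50) library with doxycycline. SLC7A11 also spans 148.6 kb, the longest of the 10 loci, and changes of all genes moved with locus span, with Spearman's rho across genes of 0.18 at day 6 and −0.14 at day 9. Its annotated exons, at 16031 bases, are the longest of the 10 too. Each library's trends over exon length and locus span were removed together, and this setting is called removal of the span trend below. The parts of length and span in it are not told apart. With both trends removed, the log2 change of SLC7A11 was 0.93 at day 6 and 0.50 at day 9, and the day 9 value passed (adjusted p = 0.00337), as it did with no low-count filter (0.27).

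The per-length ratio of each light chain to the heavy chain shows the same data as proportions of RNA. SLC7A5 over SLC3A2 was 0.856 ± 0.00843 under doxycycline, then 1.02 ± 0.0187, 0.753 ± 0.0597 and 0.944 ± 0.0411 for days 3, 6 and 9, in RPKM over RPKM (mean ± SD, n = 3). SLC7A11 over SLC3A2 was 0.0659 ± 0.00818 under doxycycline, then 0.0810 ± 0.00608, 0.0914 ± 0.00317 and 0.0419 ± 0.0126 for days 3, 6 and 9. The xCT share thus was highest at day 6, where the LAT1 share was lowest, and every day 9 library had a lower xCT share than any other ∆SARS2 library.

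**Figure D2:**
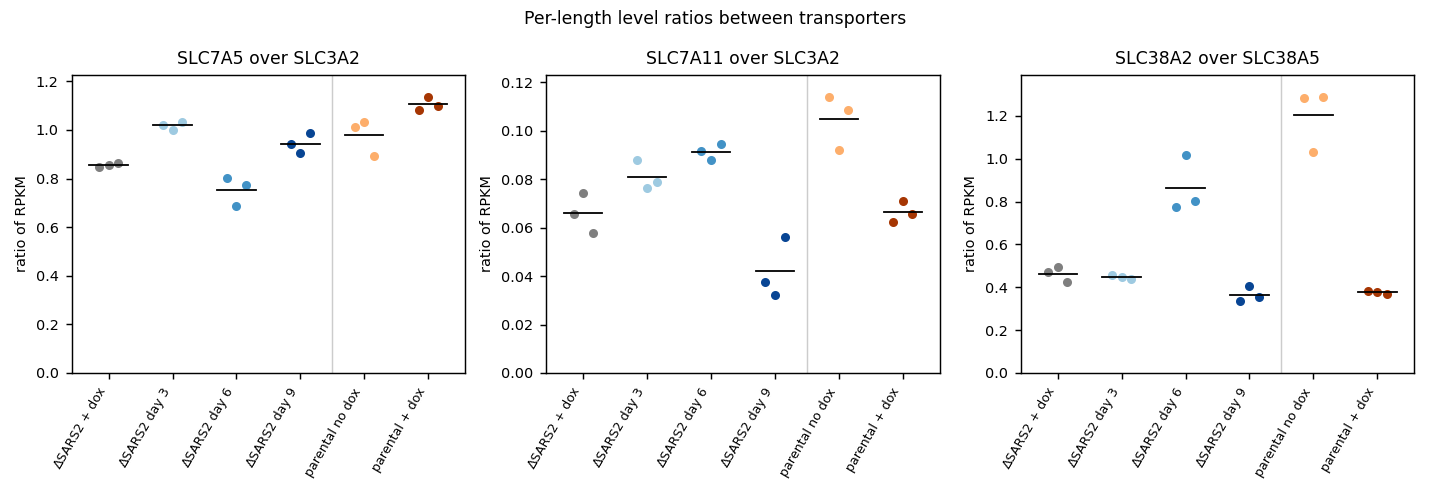
Ratios of per-length level (RPKM over RPKM, linear axis from 0) for SLC7A5 over SLC3A2, SLC7A11 over SLC3A2 and SLC38A2 over SLC38A5; points are libraries and lines group means. SLC7A11 over SLC3A2 averages 0.0419 at day 9 and 0.105 in parental cells lacking the drug; SLC38A2 over SLC38A5 averages 0.866 at day 6 and 1.20 in parental cells lacking the drug, both above the other groups.

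Among the carriers that work without sodium and without a heavy chain, SLC7A1, the CAT1 carrier of arginine and lysine, had 162, 161 and 154 CPM with doxycycline, 189, 194 and 196 CPM at day 3, 219.8, 227 and 224 CPM at day 6 and 195, 189 and 240.3 CPM at day 9. All libraries of the 3 days lay above those with doxycycline, and day 9 overlapped day 3 and day 6. Its log2 fold change was 0.28 at day 3 (SE 0.069, adjusted p = 0.0134), 0.49 at day 6 (SE 0.070, adjusted p = 5.59e-05) and 0.39 at day 9 (SE 0.069, adjusted p = 0.000153). SLC7A1 failed at day 3 without the second or the third day 3 library (0.27 each). SLC43A1, the LAT3 carrier that lets branched-chain amino acids and phenylalanine run down their gradient, had 31.7, 33.7 and 30.7 CPM with doxycycline, 32.6, 27.1 and 30.0 CPM at day 3, 39.3, 37.2 and 39.6 CPM at day 6 and 29.8, 27.3 and 25.1 CPM at day 9. Over all 6 groups it had the smallest range of the 10 genes, with the highest group mean 1.41-fold the lowest. Within the ∆SARS2 line alone the smallest was that of SLC38A2, at 1.30-fold. LAT3 changed by −0.10 at day 3 (SE 0.083, adjusted p = 0.466), 0.27 at day 6 (SE 0.083, adjusted p = 0.0190) and −0.23 at day 9 (SE 0.083, adjusted p = 0.0320) on the log2 scale. Its day 6 call was lost without the first or the third library of either group (0.24 to 0.27), and its day 9 call without the first or the second doxycycline or the second or the third day 9 library (−0.23 to −0.17), without the low-count filter (−0.22) or with only the 2 groups fitted (−0.22).

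Within the ∆SARS2 line the sodium-coupled carriers held both the smallest range of group means, that of SLC38A2, and the largest, that of SLC6A9. SLC38A2 is SNAT2, which accumulates alanine, glutamine and other small neutral amino acids and is a classic gene of amino acid starvation. It had 129, 133 and 135 CPM with doxycycline, 164, 173 and 172 CPM at day 3, 171, 175 and 166 CPM at day 6 and 165, 177 and 174 CPM at day 9. The 3 days overlapped each other and lay above the libraries with doxycycline. SNAT2 log2 changes were 0.36, 0.37 and 0.38 at days 3, 6 and 9 (SE 0.058 each, adjusted p = 0.000868, 0.000154 and 3.05e-05), and day 9 over day 3 was 0.020 (SE 0.058, adjusted p = 0.833).

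SLC38A5, or SNAT5, moves glutamine, asparagine, histidine, serine and glycine in exchange for protons with sodium. It had 143, 141 and 166 CPM with doxycycline, 187, 202 and 205 CPM at day 3, 116, 89.9 and 108 CPM at day 6 and 257, 229 and 256 CPM at day 9. No 2 of these 4 groups overlapped: day 6 was below and days 3 and 9 were above the libraries with doxycycline. In log2 units SNAT5 changed by 0.40 at day 3 (SE 0.084, adjusted p = 0.00438), −0.52 at day 6 (SE 0.084, adjusted p = 0.000171) and 0.72 at day 9 (SE 0.084, adjusted p = 1.37e-06). Day 9 over day 6 was 1.25 (SE 0.085, adjusted p = 8.99e-10), where 28.6% of all genes were called higher and 30.2% lower. With the span trend removed the day 6 change was −0.45 and the day 9 change 0.62, and both passed. Per length, SLC38A2 RNA was 0.464 ± 0.0357 of SLC38A5 RNA under doxycycline, then 0.448 ± 0.00974, 0.866 ± 0.133 and 0.365 ± 0.0357 for days 3, 6 and 9.

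SLC6A9 is GlyT1, a carrier of glycine. It had 14.7, 14.9 and 16.3 CPM with doxycycline, 24.6, 25.5 and 26.3 CPM at day 3, 28.7, 23.6 and 27.4 CPM at day 6 and 48.5, 48.7 and 39.1 CPM at day 9. Days 3 and 6 overlapped, and day 9 lay above both. Its day 9 log2 change was the largest of the 10 genes at 1.57 (SE 0.093, adjusted p = 9.73e-10), a 2.97-fold difference, after 0.74 at day 3 (SE 0.092, adjusted p = 0.000159) and 0.80 at day 6 (SE 0.092, adjusted p = 7.85e-06). The gene CCDC24 overlaps the end of SLC6A9 on the opposite strand, only at chr1:43996483-43996528, where SLC6A9 has 7953 exonic bases in all. CCDC24 held 164 to 544 counts per library over its whole length, against 1071 to 4624 for SLC6A9. The sources used here do not say whether counting used strand, so the reads of that short stretch are uncertain.

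SLC1A4 is ASCT1, which exchanges alanine, serine, cysteine and threonine. It had 23.1, 21.8 and 25.5 CPM with doxycycline, 28.1, 31.8 and 30.1 CPM at day 3, 41.7, 32.6 and 39.4 CPM at day 6 and 51.1, 58.5 and 47.0 CPM at day 9. The 4 groups stood apart in that order. The log2 change of ASCT1 was 0.35 at day 3 (SE 0.094, adjusted p = 0.0183), 0.69 at day 6 (SE 0.094, adjusted p = 3.48e-05) and 1.15 at day 9 (SE 0.094, adjusted p = 2.76e-08). ASCT1 failed at day 3 without the first (0.34) or the second (0.30) library with doxycycline, or without the second (0.31) or the third (0.35) of day 3. SLC1A5, or ASCT2, the main glutamine exchanger of many proliferating cells, had 302, 266 and 285 CPM with doxycycline, 298, 324 and 322 CPM at day 3, 408, 414 and 412 CPM at day 6 and 387, 424 and 447 CPM at day 9. Day 3 overlapped the libraries with doxycycline, and days 6 and 9 lay above them and overlapped each other. The day 3 change of 0.15 did not pass (SE 0.062, adjusted p = 0.123) except with only the 2 groups fitted (0.15), while those at day 6 (0.53, SE 0.062, adjusted p = 9.64e-06) and day 9 (0.56, SE 0.062, adjusted p = 8.69e-07) did.

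**Figure D3:**
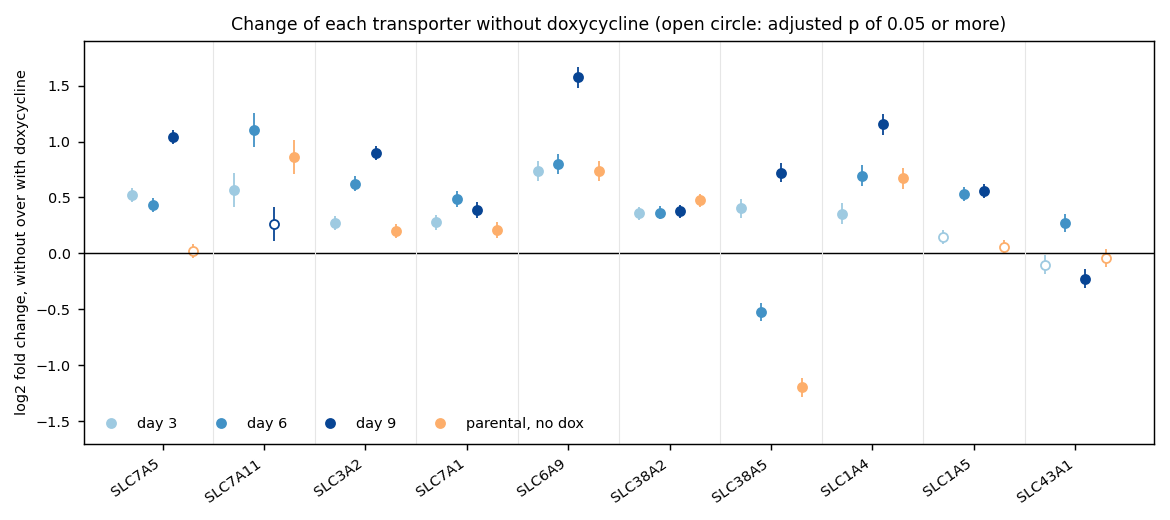
Log2 fold change (edgeR, with SE bars) of each transporter gene without over with doxycycline, for days 3, 6 and 9 of the ∆SARS2 line and for the parental line; filled circles passed at an adjusted p under 0.05. SLC6A9 at day 9 is the highest point (1.57) and SLC38A5 in the parental line the lowest (−1.19).

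Between the days, 6 of the 10 genes were higher and SLC38A5 was lower at day 6 than at day 3, where 21.9% of all genes were called higher and 20.8% lower. Of those 6, SLC7A1 (0.21) was lost with the span trend removed (0.077) and without the first day 3 (0.18), the second day 6 (0.19) or the third day 6 library (0.20), and SLC1A4 (0.34) failed without the first day 6 library (0.25). Between days 9 and 6, SLC7A5, SLC3A2, SLC6A9, SLC38A5 and SLC1A4 were higher at day 9 and SLC7A11 and SLC43A1 were lower, and SLC7A1, SLC38A2 and SLC1A5 did not pass (−0.10, 0.012 and 0.026 on the log2 scale). Of all genes, 28.6% were called higher and 30.2% lower there, so these counts are not read as particular to the transporter genes. Day 9 stood above day 3 for 6 of the 10 genes and below it for none that passed, where 14.8% of all genes were called higher and 15.0% lower. With the span trend removed, SLC38A5 lost that call (0.22) and SLC7A1 gained one (0.22). With library size alone as the scaling, the all-gene median of day 9 over day 6 moved to −0.15 on the log2 scale, against −0.02 with TMM, and calls split into 4892 higher and 7794 lower, against 6183 and 6526 with TMM; for day 9 over day 3 they split into 2229 higher and 4153 lower, against 3209 and 3233. Under that scaling SLC7A1 was called lower at day 9 than at day 6 (−0.23), as it was without the third day 9 library (−0.22), and SLC7A11 was called lower at day 9 than at day 3 (−0.39), as it was without the third day 9 library (−0.63) or with no low-count filter (−0.30).

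The parental line carries no SARS2 change and shows what accompanied the absence of doxycycline in cells with their own SARS2. There 6 of the 10 genes were higher without than with the drug and SLC38A5 was lower, where 21.0% of all genes were called higher and 18.4% lower. The largest rise was in SLC7A11, with 155, 128 and 164 CPM without and 79.4, 83.3 and 82.6 CPM with doxycycline (log2 0.86, SE 0.15, adjusted p = 0.000180). SLC6A9 had 35.9, 37.3 and 40.6 CPM without and 22.2, 23.0 and 23.1 CPM with the drug (log2 0.74, SE 0.091, adjusted p = 6.44e-06), and SLC1A4 had 52.6, 52.7 and 56.1 CPM without and 33.9, 33.4 and 34.0 CPM with it (log2 0.67, SE 0.093, adjusted p = 1.96e-05). In each of these 3 genes every library without the drug exceeded every library with it.

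SLC38A2 was also higher without the drug in the parental line, at 221, 196 and 229 CPM against 153, 154 and 158 CPM with it (log2 0.47, SE 0.058, adjusted p = 6.25e-06). SLC38A5 had the largest change of the 10 genes there, with 89.8, 99.1 and 92.7 CPM without and 209.6, 212 and 223 CPM with doxycycline (log2 −1.19, SE 0.085, adjusted p = 2.64e-08). The smaller rises of SLC3A2, at 233, 240.1 and 259.7 CPM without and 219, 202 and 216 CPM with the drug (log2 0.20, adjusted p = 0.0182), and of SLC7A1, at 237, 235 and 253 CPM without and 210.1, 210.0 and 208 CPM with it (log2 0.21, adjusted p = 0.0220), were less firm. The SLC3A2 call was lost without the third library lacking the drug (0.15) or the second with it (0.17), and the SLC7A1 call was lost with the span trend removed (0.052), without the third library lacking the drug (0.17), or without any of the 3 libraries with it (0.20 to 0.21). SLC7A5 had 413, 434 and 406 CPM without and 416, 403 and 415 CPM with doxycycline, and these groups overlapped (log2 0.022, SE 0.062, adjusted p = 0.801). SLC1A5 overlapped too, at 391, 406 and 383 CPM without and 391, 361 and 381 CPM with the drug (log2 0.059, adjusted p = 0.485), as did SLC43A1, at 35.8, 36.5 and 31.5 CPM without and 36.3, 36.4 and 34.1 CPM with it (log2 −0.040, adjusted p = 0.732).

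With doxycycline in both lines, the transporter genes were lower in the ∆SARS2 line than in the parental line. Of the 10 genes, 8 passed as lower and none as higher, where 9.97% of all genes were called lower and 9.32% higher, and for all 10 the 3 ∆SARS2 libraries lay below the 3 parental libraries, as they did for 22.9% of all genes. The median log2 difference was −0.40, against 0.01 for all genes. SLC7A5 differed most, with 252, 229.9 and 252 CPM in the ∆SARS2 line and 416, 403 and 415 CPM in the parental line (log2 −0.75, SE 0.062, adjusted p = 7.99e-08). SLC6A9 (−0.58, adjusted p = 0.000203), SLC1A4 (−0.53, adjusted p = 0.000572), SLC38A5 (−0.52, adjusted p = 0.000232), SLC1A5 (−0.41, adjusted p = 0.000133), SLC7A1 (−0.39, adjusted p = 0.000538) and SLC3A2 (−0.38, adjusted p = 0.000338) followed. SLC38A2 was the smallest that passed at −0.23 (SE 0.058, adjusted p = 0.0102), and that call was lost without the first ∆SARS2 library (−0.21). SLC7A11 at −0.39 (adjusted p = 0.0763) and SLC43A1 at −0.15 (adjusted p = 0.222) did not pass, although SLC7A11 did under 4 of the 7 alternatives that keep every library (−0.46 to −0.39) and SLC43A1 with only the 2 groups fitted (−0.15). These 3 ∆SARS2 libraries are also the baseline of the day 3, 6 and 9 comparisons, so a low level in them enters both results, and the line and any difference between the 2 cultures cannot be told apart.

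Set beside the parental levels, day 9 stood above them for some of the genes, overlapped them for others and lay below them for SLC43A1. SLC7A5 averaged 503 ± 43.7 CPM at day 9, 418 ± 14.7 CPM in the parental line without and 411 ± 7.30 CPM with doxycycline, and every day 9 library exceeded every parental library. SLC3A2 averaged 304 ± 14.3 CPM at day 9, 244 ± 13.7 CPM in parental cells without and 213 ± 9.03 CPM with the drug, again with day 9 above all others. For SLC1A4, day 9 at 52.2 ± 5.81 CPM overlapped the parental libraries without doxycycline at 53.8 ± 2.03 CPM, and for SLC6A9 day 9 at 45.4 ± 5.48 CPM overlapped those at 37.9 ± 2.44 CPM. SLC43A1 at day 9, at 27.4 ± 2.32 CPM, lay below every parental library, at 34.6 ± 2.69 CPM without and 35.6 ± 1.31 CPM with the drug. The day 9 libraries of SLC38A2 and SLC7A11 lay below the parental ones without doxycycline. Against those with it, SLC38A2 lay above and SLC7A11 overlapped. For SLC38A2, SLC7A1, SLC7A11 and SLC1A4 the highest mean of the 6 groups was that of the parental line without doxycycline, at 215, 242, 149 and 53.8 CPM.

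The difference between the lines in their change without doxycycline was tested directly, as the ∆SARS2 change minus the parental change. The low level of most of these genes in the ∆SARS2 libraries with doxycycline enters this difference on each day. A positive value therefore need not mean a level above the parental line. At day 3 the difference passed for 2 of the 10 genes, SLC7A5 (0.50, SE 0.088, adjusted p = 0.000195) and SLC38A5 (1.60, SE 0.12, adjusted p = 5.64e-08), both higher in the ∆SARS2 line, where 18.6% of all genes were called higher and 20.9% lower, so this count lies near the share of all genes. At day 6 it passed for 4, where 5.49% of all genes were called higher and 7.14% lower: SLC38A5 (0.67, adjusted p = 0.00186), SLC1A5 (0.47, adjusted p = 0.00242), SLC3A2 (0.42, adjusted p = 0.00561) and SLC7A5 (0.41, adjusted p = 0.00528). At day 9, where 24.4% of all genes were called higher and 27.3% lower, it passed as higher for SLC38A5 (1.92, SE 0.12, adjusted p = 1.22e-09), SLC7A5 (1.02, SE 0.088, adjusted p = 2.98e-08), SLC6A9 (0.84, SE 0.13, adjusted p = 2.11e-05), SLC3A2 (0.70, SE 0.091, adjusted p = 3.35e-06), SLC1A5 (0.50, SE 0.088, adjusted p = 9.33e-05) and SLC1A4 (0.48, SE 0.13, adjusted p = 0.00446).

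SLC7A11 went the other way at day 9, with a change that was lower in the ∆SARS2 line by −0.60 (SE 0.21, adjusted p = 0.0233). That call was lost with the span trend removed (−0.18), with only the 4 groups fitted (−0.60), and without the first parental library lacking the drug (−0.56), the second ∆SARS2 library with it (−0.54), or the first (−0.50) or the second (−0.43) day 9 library. SLC38A2 did not pass on any day, at −0.12 (SE 0.082), −0.11 (SE 0.082) and −0.097 (SE 0.082) for days 3, 6 and 9, although its day 9 value passed with library size alone as the scaling (−0.20). SLC43A1 did not pass either, but did at day 6 with the DESeq2 Wald test and with only the compared groups fitted (0.33 each). SLC7A1 did not pass on any day either. Under alternatives it passed at day 6 with library size alone (0.30), the DESeq2 Wald test (0.30), only the compared groups (0.29) or without the third parental library lacking the drug (0.31), and at day 9 without the second day 9 library (0.24). With the span trend removed it passed on each day (0.24, 0.32 and 0.47 for days 3, 6 and 9). At day 3, SLC7A11 passed as lower with no low-count filter (−0.29) and SLC1A4 with only the compared groups fitted (−0.32). The parental time without the drug is not given, so a parental change matched in time cannot be set against each day.

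**Figure D4:**
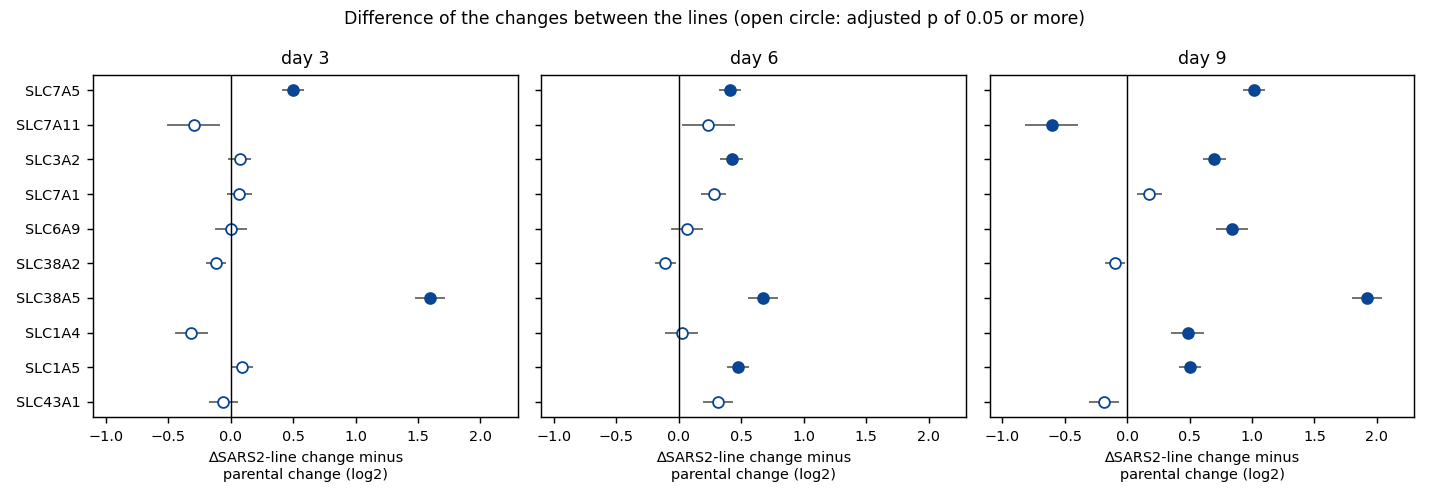
Difference between the lines in the log2 change without doxycycline (∆SARS2 line minus parental line, with SE bars) for each transporter gene at days 3, 6 and 9; filled circles passed at an adjusted p under 0.05. SLC38A5 lies farthest to the right on each day (1.60, 0.67 and 1.92), and SLC7A11 at day 9 is the filled point left of 0.

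Over the 18 libraries, the genes of the set did not form a single pattern. Among the 45 pairs, SLC6A9 and SLC1A4 were most alike (Pearson's r of log2 CPM 0.95 over 18 libraries), followed by SLC3A2 and SLC1A5 (0.91), and SLC7A11 and SLC38A5 were least alike (−0.71). These values describe libraries that share 6 groups and a common scaling. Among 10538 other genes with a mean of at least 10 CPM, the closest to SLC1A4 were SESN2 (0.98), a stress-induced regulator of mTORC1, CHAC1 (0.97), an enzyme that breaks down glutathione, and GPT2 (0.96), the mitochondrial alanine aminotransferase. SESN2 (0.94) was also the closest to SLC6A9, followed by SLC7A3 (0.93) and KANSL3 (0.93). The pseudokinase gene TRIB3 was the closest to SLC3A2 (0.93) and the second closest to SLC1A5 (0.93), after NIBAN1 (0.94). For SLC7A1 the closest were GARS1 (0.92) and MARS1 (0.91), the glycyl- and methionyl-tRNA synthetases, and XPOT (0.90), the exporter of tRNA from the nucleus.

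The closest neighbours of the other genes of the set were mostly of other kinds. SLC38A5 lay next to PPM1G (0.99), PSME3 (0.99) and GYS1 (0.98), and SLC7A11 next to EXPH5 (0.95), PDE8A (0.94) and ZNF800 (0.94). SLC7A5 was closest to TIMM44 (0.96), CERK (0.95) and CERS2 (0.95). SLC38A2 was closest to DYNC1LI2, VLDLR and ZNF721 (0.90 to 0.92), and VLDLR is among the other targets of ATF4 counted below. SLC43A1 was closest to SLC1A6, NKD2 and TAFAZZIN (0.90 to 0.94).

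ATF4 RNA itself stood at 400.4 ± 0.651 CPM in ∆SARS2 cells with doxycycline, 478 ± 5.69 CPM at day 3, 459.6 ± 18.4 CPM at day 6 and 449 ± 26.8 CPM at day 9. It was 634 ± 44.9 CPM in the parental line without and 563 ± 23.1 CPM with the drug. The log2 change was 0.25 at day 3, 0.20 at day 6 and 0.17 at day 9 (adjusted p = 0.00911, 0.0177 and 0.0291). In the parental line ATF4 was also higher without the drug, by 0.17 (adjusted p = 0.0290). The difference of the changes between the lines did not pass, at 0.085, 0.029 and −0.0050 for days 3, 6 and 9. With doxycycline in both lines, ATF4 was lower in the ∆SARS2 line (−0.49, adjusted p = 1.04e-05). Of 41 other targets of ATF4, 13 were higher and 1 lower at day 3, 35 and 0 at day 6, and 29 and 2 at day 9. In the parental line 32 were higher without the drug and none lower, and with doxycycline 25 were lower in the ∆SARS2 line than in the parental line and 2 higher. The shares of all genes called higher and lower were 6.50% and 6.87% at day 3, 14.0% each at day 6, 22.6% and 23.8% at day 9, 21.0% and 18.4% in the parental line, and 9.32% and 9.97% between the lines. The counts of the lists that follow stand beside the same shares. XPOT, for example, had log2 changes of 0.11, 0.47 and 0.32 on days 3, 6 and 9 (adjusted p = 0.155, 4.97e-06 and 4.78e-05). Without the drug in the parental line XPOT was higher by 0.29 (adjusted p = 0.000219). The median log2 change of this list was 0.11 at day 3, 0.64 at day 6 and 0.60 at day 9. For the ∆SARS2 change minus the parental change, 1 of the 41 was called higher and 19 lower at day 3. At day 6 the counts were 8 and 0, and at day 9 they were 11 and 10. The shares of all genes were 18.6% and 20.9% at day 3, 5.49% and 7.14% at day 6, and 24.4% and 27.3% at day 9.

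Of 37 other plasma membrane and lysosomal amino acid carriers, 22 were tested. Of these, 5 were higher and none lower at day 3, 4 higher and 5 lower at day 6, and 9 higher and 5 lower at day 9. In the parental line 5 were higher and 5 lower without the drug, and with doxycycline 9 were lower and 1 higher in the ∆SARS2 line than in the parental line. At day 6 and in the parental line the counts in each direction lie near the shares of all genes, so nothing about these carriers as a group is read from them. SLC38A1, the SNAT1 glutamine carrier, changed by 0.47 at day 3, 0.25 at day 6 and 0.46 at day 9 on the log2 scale (adjusted p = 0.00260, 0.0424 and 0.000305). SLC7A3, a further carrier of arginine and lysine, changed by 0.29, 0.58 and 0.92 on days 3, 6 and 9 (adjusted p = 0.0251, 4.49e-05 and 6.76e-08). SLC7A6, a y+LAT light chain, was higher at days 3 and 9 (0.41 and 0.78, adjusted p = 0.00226 and 2.33e-07) and did not pass at day 6 (−0.049, adjusted p = 0.684). SLC36A1, the proton-coupled carrier of lysosomes, was lower at day 6 (−0.42, adjusted p = 0.000139) and higher at day 9 (0.23, adjusted p = 0.00847).

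Of 11 carriers of amino acids in the mitochondrial inner membrane, 10 were tested. Of these, 4 were higher and 1 lower at day 3, 1 higher and 4 lower at day 6, 6 higher and 2 lower at day 9, and 1 higher and 6 lower without the drug in the parental line. SLC25A38, a glycine carrier needed for haem synthesis, had log2 changes of 0.44, −0.070 and 0.62 for days 3, 6 and 9 (adjusted p = 0.00102, 0.515 and 1.64e-06). SLC25A13, the aspartate and glutamate carrier citrin, had 0.33 at day 3, −0.51 at day 6 and 0.33 at day 9 (adjusted p = 0.0125, 0.000155 and 0.00247). Both were lower without the drug in the parental line, SLC25A38 by −0.38 and SLC25A13 by −0.61 (adjusted p = 0.000465 and 1.44e-05). For SLC7A11, which is also a target of the antioxidant factor NRF2, 12 other NRF2 targets were counted. At day 3, where SLC7A11 was higher, 1 of them was higher and 0 were lower, beside 6.50% and 6.87% of all genes. At day 6, where SLC7A11 was higher, none of them was higher and 3 were lower, beside 14.0% of all genes each way. At day 9, 9 were higher and 2 lower, beside 22.6% and 23.8%. SLC7A11 did not pass at day 9, but did with the span trend removed (0.50). The part of NRF2 in the SLC7A11 values was not tested. NQO1, an NRF2 target that reduces quinones, changed by 0.24, −0.31 and 0.47 on days 3, 6 and 9 (adjusted p = 0.0896, 0.0169 and 0.000332). In the parental line NQO1 was lower without the drug (−0.75, adjusted p = 6.40e-06). Without the drug in parental cells, none of the 12 was higher and 7 were lower. Of 9 genes for ATF4 and the kinases and relay upstream of it, 1 was higher and 1 lower at day 3, 2 and 2 at day 6, and 3 and 3 at day 9. Of 16 genes that sense amino acids upstream of mTORC1, 2 were higher and 3 lower at day 3, 2 and 2 at day 6, and 6 and 5 at day 9. The counts of these last 2 lists at day 6 lie near the shares of all genes, and no change of either list is read from them.

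A nuclear RNA moved with SLC7A11 and against SLC38A5. NEAT1, a long RNA kept in nuclear paraspeckles, averaged 6.86 CPM in ∆SARS2 cells with doxycycline, then 5.03, 16.3 and 2.90 CPM for days 3, 6 and 9, and 14.6 CPM without and 3.94 CPM with the drug in parental cells. In the same groups SLC38A5 averaged 149.9, then 198, 104 and 247 CPM, and 93.9 CPM without and 215 CPM with the drug, which is the reverse ranking apart from the day 6 and parental groups without it, whose places are swapped. SLC7A11 had its highest means, 149 and 133 CPM, in the parental group without the drug and at day 6, where NEAT1 was highest. MALAT1, another nuclear RNA, averaged 1170 CPM in ∆SARS2 cells with doxycycline, then 932, 1274 and 1107 CPM for days 3, 6 and 9. In parental cells it averaged 1149 CPM without and 761 CPM with the drug. MALAT1 thus did not follow NEAT1 at day 9, where NEAT1 was lowest. The part that a shift in nuclear RNA plays in these values was not tested.

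**Figure D5:**
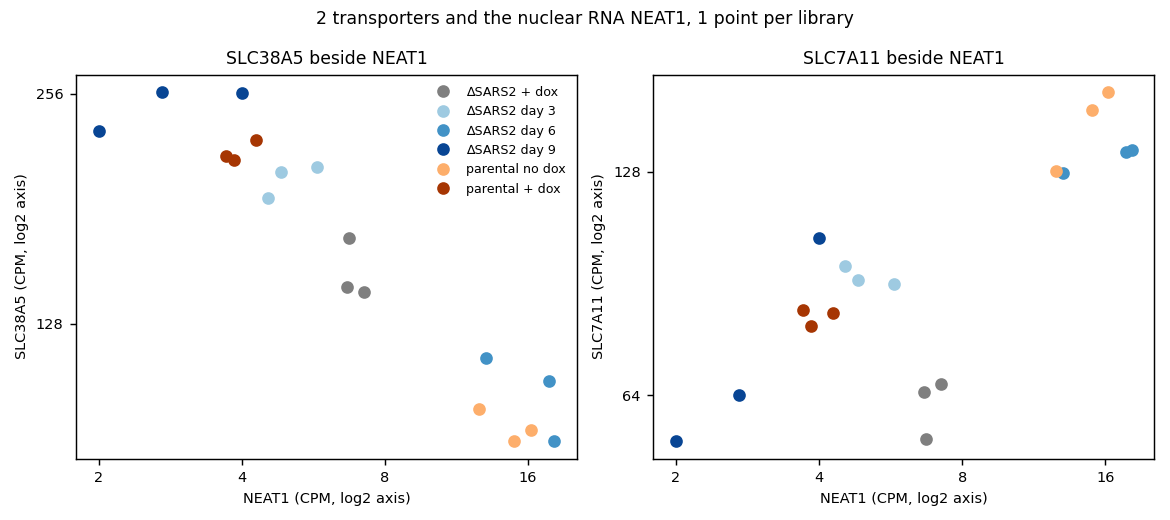
SLC38A5 (left) and SLC7A11 (right) against NEAT1 in each of the 18 libraries, in CPM on log2 axes, coloured by group. The day 6 and parental libraries without doxycycline form a cluster at 12.6 CPM of NEAT1 or more, with SLC38A5 low and SLC7A11 high.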

How the data were processed

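RNA was taken up in Trizol, separated with chloroform and cleaned on a column, per the labels' protocols, and 151-bp paired-end libraries were sequenced on an Illumina NovaSeq. The authors deposited 3 tables of unnormalized whole-number read counts per gene, as the file headers and values show. Tools listed in the submitters' processing notes are featureCounts, Subread, HISAT2, SAMtools, cutadapt 2.3 and DESeq2, with the build GRCh38; which annotation release and strand setting were used is not stated there. Lines of 16 genes that had been broken were rejoined, the 6 libraries found in 2 tables (identical in each) were read a single time, and all 37 mitochondrial-chromosome genes were at 0 counts.

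From the deposited counts, edgeR 4.0.16 (R 4.3.3) fitted all 18 libraries together by quasi-likelihood, each group with its own mean, after filterByExpr (21615 genes) and TMM scaling; the fit was also tested on simulated data. P-values were Benjamini-Hochberg adjusted over all genes tested, the threshold was 0.05, and SE is that of the log2 fold change. CPM and RPKM were computed from these counts, and levels are mean ± SD over 3 libraries. The alternatives were DESeq2 size factors, library size alone, no low-count filter, the DESeq2 Wald test, only the compared groups, a replicate block, removal of each library's trend over exon length and locus span, and leaving out each library. Likeness between genes is Pearson's r of log2 CPM (prior count 2).

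No label says that replicates were separate cultures, so p-values reflect only how these samples scatter, and that scatter may be technical. The 10 genes and the comparison lists were chosen with earlier results of these data known. The text names all 10 genes, for each the 3 most alike genes, and from each list members called on at least 2 of the 3 days, the most abundant first; not all of these are printed.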

Additional observations from a re-analysis of the deposited data

Results flagged for a closer look

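The change without doxycycline differed between the ∆SARS2 line and the parental line, by the test of the difference itself, for 2 of the 10 transporter genes at day 3, 4 at day 6 and 7 at day 9. Of all genes, 18.6% were called higher and 20.9% lower at day 3, 5.49% and 7.14% at day 6, and 24.4% and 27.3% at day 9, so the counts at days 3 and 9 are not read as particular to these genes. The values below are log2 changes in the ∆SARS2 line minus those in the parental line, and the same parental change enters all 3 days. SLC38A5 differed by 1.60 at day 3, 0.67 at day 6 and 1.92 at day 9; it was lower without the drug in the parental line (−1.19) and at day 6 (−0.52) but higher at days 3 and 9. SLC7A5 differed by 0.50 at day 3, 0.41 at day 6 and 1.02 at day 9, beside a parental change of 0.022 that did not pass. Its day 3 and day 6 levels, 351 and 331 CPM, lay below the parental ones, 418 CPM without and 411 CPM with doxycycline. The ∆SARS2 libraries with doxycycline, low for SLC7A5 at 245 CPM, are the baseline of every ∆SARS2 change here and enter each difference. SLC3A2 differed by 0.42 at day 6 and 0.70 at day 9, and SLC1A5 by 0.47 at day 6 and 0.50 at day 9. At day 9 alone, SLC6A9 differed by 0.84, SLC1A4 by 0.48 and SLC7A11 by −0.60. The SLC7A11 value rests on 3 day 9 libraries at 64.2, 55.6 and 104 CPM and lost its call under several alternatives. Groups held 3 libraries each, so single libraries were not tested as outliers. The counts of library pairs within a group were compared as a chi-square per gene, where a larger value means less agreement. It was 48.9 and 95.0 for the third day 9 library against the first and the second. For the third parental library lacking the drug it was 69.5 and 86.6. The remaining pair had 22.3 at day 9 and 21.1 in that parental group, and pairs of the other groups had 4.97 to 32.6.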

How the results depend on the processing

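Over all alternatives, 1502 of the values of the 10 genes kept their direction and their side of the threshold, 43 lost a call, 28 gained one and 37 changed sign, and no called value changed sign. Calls over all genes moved by more than 1.5 times with only the compared groups fitted, to 6536 for day 3 against doxycycline and 7336 for ∆SARS2 over parental cells under doxycycline (2889 and 4171 with all groups). Leaving out a library gave 1088 to 2564 calls for day 3 (moved by over 1.5 times without the first or the second ∆SARS2 library with doxycycline or the second or the third of day 3), 3834 to 5855 for day 6 (without the third ∆SARS2 library with doxycycline), 2593 to 3846 between the lines with doxycycline (without the first or the second ∆SARS2 or the third parental library) and 1625 to 3301 for the difference of the changes at day 6 (without the second ∆SARS2 or the second or the third parental library with doxycycline, or the third of day 6). Of the 10 genes, 4 (without the second day 3 library) to 7 were called at day 3, with 5 without the third. The cause was not tested. Uncalled log2 values that changed sign were as follows. With library size alone, SLC38A2 and SLC1A5 for day 9 over day 6 were −0.11 and −0.10, SLC38A2 for day 9 over day 3 −0.043, SLC43A1 in the parental line 0.0056 and SLC6A9 for the difference at day 3 −0.038. With the span trend removed, SLC7A1, SLC38A2 and SLC1A5 for day 9 over day 6 were 0.15, −0.079 and −0.12, SLC38A2 for day 9 over day 3 −0.046, SLC7A5 in the parental line −0.031 and SLC1A5 for the difference at day 3 −0.00025. With only the compared groups, SLC38A2 was −0.0039 for day 6 over day 3 and −0.0014 for day 9 over day 3, and SLC7A5 in the parental line −0.0029. Leaving out a library moved SLC7A11 at day 9 over −0.058 to 0.44, SLC6A9 and SLC38A2 for day 6 over day 3 over −0.012 to 0.13 and −0.027 to 0.023, SLC38A2 and SLC1A5 for day 9 over day 6 over −0.0083 to 0.044 and −0.023 to 0.081, and SLC7A1 and SLC38A2 for day 9 over day 3 over −0.0073 to 0.17 and −0.0045 to 0.048. It moved SLC7A5 and SLC43A1 in the parental line over −0.021 to 0.042 and −0.094 to 0.022, and for the difference of the changes SLC6A9 and SLC43A1 at day 3 over −0.024 to 0.056 and −0.12 to 0.0072, and SLC1A4 at day 6 over −0.033 to 0.12.

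Same-numbered replicates did not deviate together, with correlations of −0.25 to 0.17, so the numbers were not taken as pairs. With a replicate block, calls were 2674 at day 3, 5834 at day 6 and 9888 at day 9, and the number of the 10 genes called was unchanged in each of the 11 comparisons. The lowest count of any of these genes in a library was 1071, and both the 3 libraries a group and, for the genes with the lowest levels, counting error limit these values.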
